A study of Mus musculus with 16 samples.

Results

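The AP-1 and Egr immediate early factors are 10 genes, namely Fos, Fosb, Fosl1 and Fosl2 of the Fos family, Jun, Junb and Jund of the Jun family, and Egr1, Egr2 and Egr3 of the Egr family. They were followed on every probe set whose platform annotation gives exactly 1 of these symbols. This gave 16 of the 45101 probe sets on the array, 6 for the Fos family, 5 for the Jun family and 5 for the Egr family, and 10 of the 18194 genes that have such a probe set. In all, 4 members had 1 probe set and 6 had 2, and no probe set named a member together with another gene. RNA of interscapular brown adipose tissue (BAT) and of subcutaneous white adipose tissue (sWAT) from LACA mice was hybridized on 16 Affymetrix mouse arrays, 8 for each tissue. Each tissue had 4 replicates with 2 arrays each, and the mean of the 2 arrays was taken as the value of the replicate. By the methods, all mice were male, weighed 25 ± 3 g and had free access to food. No treatment is described there, no genetic change is stated, and an age is not given in the sources used here. The methods describe 4 mice with both tissues collected from each, which makes whole adipose depots, with every cell type they hold, the material compared.

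Immediate early genes are transcribed within minutes of a stimulus, without the need for new protein synthesis. Growth factors, stress and, in brown fat, noradrenaline act through MAP kinases and cyclic AMP on factors that already sit at their promoters, among them SRF with its Elk partners and CREB. Fos proteins pair with Jun proteins to form AP-1, which binds the sequence TGANTCA, and Fos proteins form no stable pair among themselves. Egr proteins are zinc finger factors that bind GCGNGGGCG and that the Nab proteins hold back. In adipose tissue Egr2, also known as Krox20, promotes the early steps of fat cell formation in culture, and in lymphocytes Egr2 and Egr3 are induced through the antigen receptor and restrain activation.

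Such signals arrive in part at the promoters of the members. The bases next to the start site are given first for Fos, Junb and Jun. Fos and Junb differed between the tissues, and Jun did not pass the test. RefSeq promoter windows (build GRCm38.p6) were found for 7 of the 10 members, and not for Egr1, Egr3 and Fosl1. The 250 bases before each start site were searched on both strands for TGACG, the core of the cyclic AMP response element, for TGANTCA, for GCGNGGGCG and for the CArG box bound by SRF. Over all 32851 windows of the same length, TGACG was found in 17.8%, TGANTCA in 6.75%, GCGNGGGCG in 4.7% and the CArG box in 1.47%. A match describes letters in the window and was not tested as a binding site. Bases farther upstream were not searched. In the 150 bases before the start site shown here 5′ to 3′, capitals mark TGACG on either strand. Fos is at chr12:85473740-85473889 on the plus strand, Junb at chr8:84978749-84978898 on the minus strand and Jun at chr4:95052223-95052372 on the minus strand.
Fos: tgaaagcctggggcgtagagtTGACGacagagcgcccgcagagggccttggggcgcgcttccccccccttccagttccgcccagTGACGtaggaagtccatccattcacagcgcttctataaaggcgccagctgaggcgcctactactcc
Junb: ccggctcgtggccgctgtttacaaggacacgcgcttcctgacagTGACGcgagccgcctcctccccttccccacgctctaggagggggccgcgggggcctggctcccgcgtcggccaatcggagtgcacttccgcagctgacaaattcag
Jun: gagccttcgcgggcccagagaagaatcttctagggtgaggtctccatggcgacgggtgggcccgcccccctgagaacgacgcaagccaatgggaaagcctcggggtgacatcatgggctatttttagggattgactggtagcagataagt

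The Fos window held TGACG at -129 and at -66 from the start site, and the Junb window held it at -106. Fosb had TGACG at -60 and GCGNGGGCG at -50, and Fosl2 had GCGNGGGCG at -79. None of the 4 motifs was found in the windows of Jun and Jund. Egr2 has 5 windows for its alternative start sites, and 4 of them held a CArG box, while 3 held TGACG on both strands, at -111 and -55, at -112 and -56, and at -172 and -116. Those 3 windows overlap, so these are the same pair of TGACG sites counted from different start sites. The CArG box of those 3 windows is likewise the same box. The boxes had 2 different sequences, printed here in capitals within 30 bases, the upper one at chr10:67537484-67537513 and the lower one at chr10:67537787-67537816, both on the plus strand.
Egr2 upper box: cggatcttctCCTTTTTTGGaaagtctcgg
Egr2 lower box: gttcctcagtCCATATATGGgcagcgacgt

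Before the members are described, the arrays that stand apart need to be named. For Gapdh and Actb, signal from the 5' end fell far below that from the 3' end on 2 arrays, the second array of BAT replicate 1 and the first array of sWAT replicate 3, while the difference of the ends lay between -1.23 and 0.46 on all others. The pair of arrays in these replicates correlated at 0.51 in BAT and 0.336 in sWAT, against 0.848 to 0.917 in the remaining replicates. Although all mice are described as male, Xist lay between 5.74 and 6.36 in BAT replicates 1 to 3 and between -0.27 and -0.11 in the other 5 replicates, and the mean of 3 Y-linked genes lay between -2.33 and -1.98 against 0.18 to 0.39. Thus, BAT replicates 1 to 3 go against that description, and BAT replicate 4 is the 1 brown fat replicate that does not. Since every sWAT replicate reads as male, tissue and sex cannot be told apart in BAT replicates 1 to 3. For numbers 1 to 3, BAT and sWAT of equal number differ in Xist and the Y-linked genes and so do not read as 1 mouse. By this reading the block does not pair tissues of 1 mouse there. The fit with the number as a block was kept because the methods used a paired test, and without the block 9 of the 16 probe sets and 5 of the 10 genes were called. Results are also given without the 2 arrays of low 5' signal, and as BAT replicate 4 alone minus the mean of the 4 sWAT replicates. The latter is printed without a p, since 1 BAT replicate has no spread of its own. Of the brown adipocyte markers, 8 of 8 were higher in BAT, by 2.65 to 7.58. BAT replicate 4 was the lowest in this list too, with a mean of 1.54 against 3.19 to 3.42 in the other BAT replicates, and with Elovl3 at 0.097 against 5.89 to 6.86.

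All values are on a log2 scale on which the median of each probe set across the 16 arrays is 0, so that they show differences and not levels, and 2 genes cannot be ranked by level. An adjusted p comes from limma, with replicates of equal number treated as blocks, adjusted over all probe sets or all genes, and a call is an adjusted p under 0.05. Of the 16 probe sets, 7 were lower in BAT, 1 was higher and 8 were not called. Of all probe sets on the array 17.3% were lower in BAT and 15.1% were higher, against 43.8% and 6.25% of the member probe sets. This contrast depends on the arrays used. Without the 2 arrays of low 5' signal 6 of the 16 member probe sets were lower and 5 were higher. The shares of all probe sets under that setting are not given here. As gene means, 5 of 10 members were lower (Fos, Junb, Egr1, Egr2 and Egr3, whose 2 probe sets disagree) and 0 were higher, where 17.5% of all genes were lower and 21.0% higher. The count of 0 higher genes was the same at an unadjusted p under 0.05 and by the methods' paired t-test with adjustment, but 1 gene was higher without the 2 arrays of low 5' signal (Fosl1, 0.40, adjusted p = 0.04) and 1 without replicate 2 (Jun, 0.75, adjusted p = 0.043). With BAT replicate 4 alone the gene means of Jun and Fosl1 gave 1.15 and 0.23. The median difference, BAT minus sWAT, was -0.51 over the 10 member genes and 0.15 over all genes. In 6 of the member probe sets all 4 BAT replicates lay below all 4 sWAT replicates, and in 1 they lay above. The share of all probe sets with such an order was 17.7% below and 23.2% above. As these are whole tissues, fewer cells that express a gene and less RNA in each of those cells cannot be told apart.

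**Figure D1:**
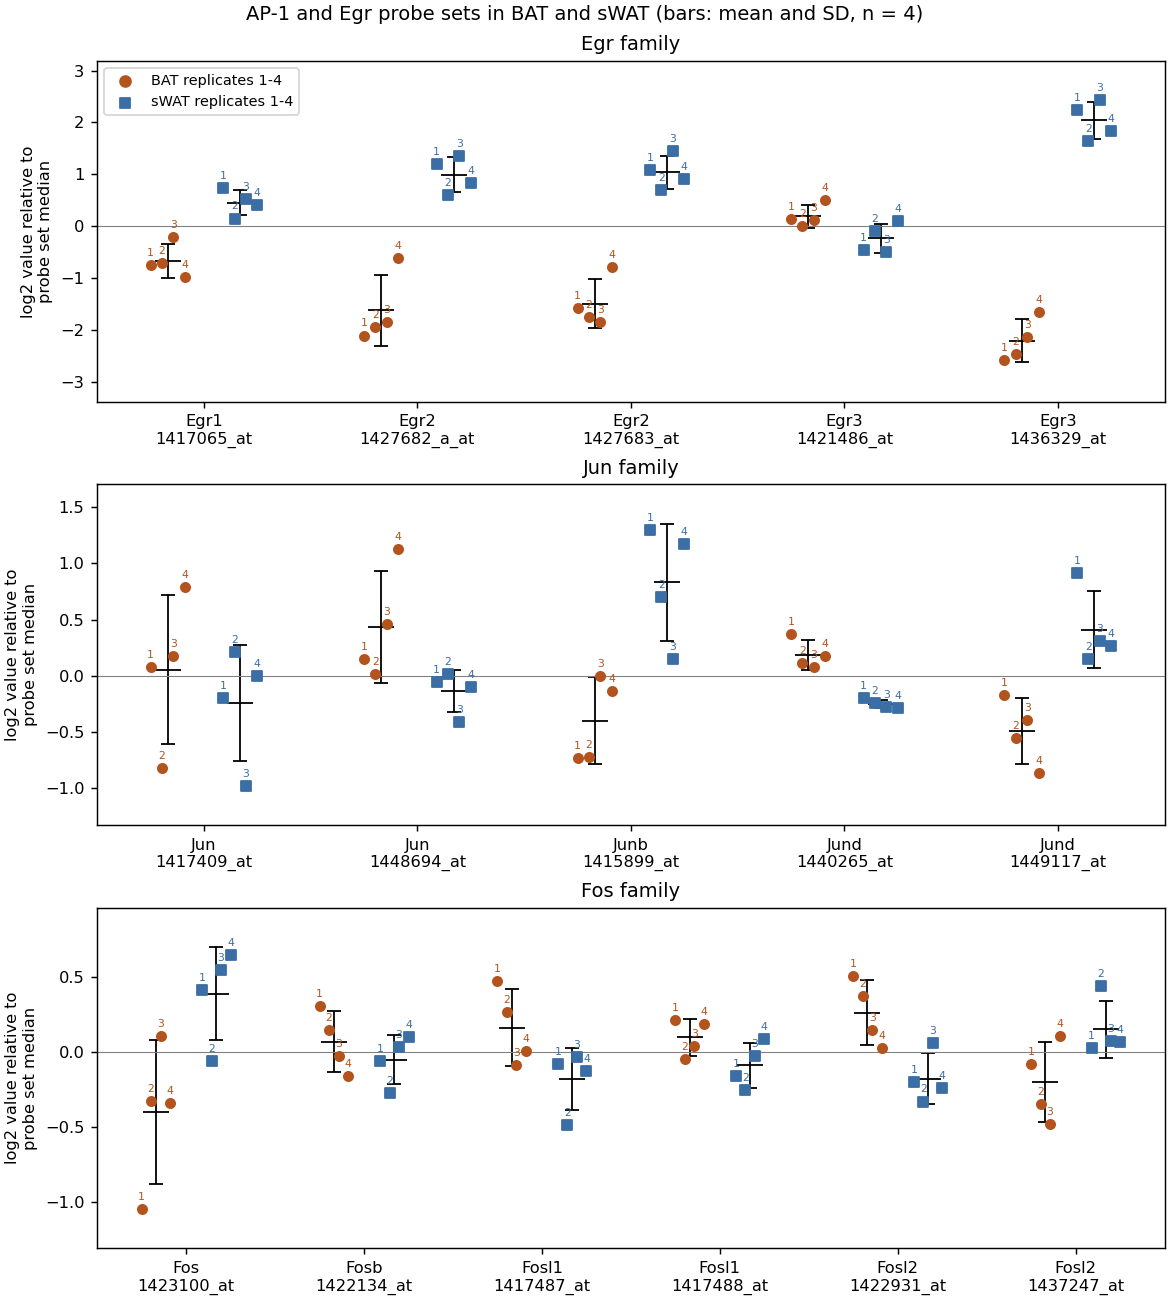
The log2 value of each AP-1 and Egr probe set, relative to its median over 16 arrays, in BAT replicates 1 to 4 (circles) beside sWAT replicates 1 to 4 (squares), with the mean and SD (n = 4). The Egr1, Egr2 and Egr3 1436329_at probe sets, Junb and Jund 1449117_at have all BAT replicates below all sWAT replicates, and the Fos family probe sets overlap.

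Egr3 showed the largest difference of all 16 probe sets, on 1436329_at, which the platform annotation pairs with no sequence record. On 1436329_at the values were -2.58, -2.48, -2.14 and -1.66 in BAT replicates 1 to 4, against 2.25, 1.64, 2.43 and 1.84 in sWAT. Every BAT replicate lay below every sWAT replicate, with a gap of 3.3 between the tissues. The difference was -4.25 ± 0.23 (SE, n = 4), that is 19.1-fold lower in BAT, with an adjusted p of 6.2e-05. The second Egr3 probe set, 1421486_at, which the platform annotation pairs with the RefSeq mRNA, ran the other way without passing the test. It had 0.13, -0.0012, 0.11 and 0.51 in BAT and -0.46, -0.095, -0.5 and 0.097 in sWAT. The tissues overlap there, and the difference was 0.42 ± 0.15 with an adjusted p of 0.064. The 2 probe sets of Egr3 thus disagree, and their mean (-1.91 ± 0.14, adjusted p = 0.00012) stands for neither. Without the 2 arrays of low 5' signal 1436329_at gave -4.17, while 1421486_at gave 0.43 with an adjusted p of 0.041. With BAT replicate 4 alone they gave -3.70 and 0.74.

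Egr2 fell in BAT on both of its probe sets. On 1427682_a_at BAT had -2.11, -1.94, -1.85 and -0.61, and sWAT had 1.19, 0.61, 1.35 and 0.83. On 1427683_at BAT had -1.58, -1.76, -1.85 and -0.8, and sWAT had 1.08, 0.7, 1.46 and 0.9. BAT replicate 4 was the highest of the BAT replicates on both, yet it stayed below all sWAT replicates. The differences were -2.62 ± 0.31 (6.17-fold, adjusted p = 0.00091) and -2.53 ± 0.25 (5.79-fold, adjusted p = 0.00047). Without the 2 arrays of low 5' signal they were -2.70 and -2.64. With BAT replicate 4 alone they were smaller, -1.61 and -1.83.

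Egr1, the member of the family that responds most widely to growth factors and injury, has 1 probe set, 1417065_at. Its values were -0.76, -0.72, -0.2 and -0.98 in BAT and 0.73, 0.15, 0.53 and 0.41 in sWAT. The tissues did not overlap, although BAT replicate 3 and sWAT replicate 2 were only 0.35 apart. Egr1 was 2.17-fold lower in BAT (-1.12 ± 0.17, adjusted p = 0.0031). The difference was -1.19 when the 2 low 5' arrays were left out, and with BAT replicate 4 alone it was -1.43. Of the Egr family, 4 of 5 probe sets were lower in BAT, against 17.3% of all probe sets, and the fifth was the Egr3 probe set of opposite sign.

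Of the Jun family, Junb differed most. Junb opposes Jun at many promoters and pairs with the same Fos proteins. On 1415899_at BAT had -0.73, -0.72, 0.00 and -0.14, and sWAT had 1.3, 0.7, 0.15 and 1.18. The lowest sWAT replicate, number 3, lay only 0.15 above the highest BAT replicate, also number 3, so the separation of the tissues is narrow at that point. Junb was 2.34-fold lower in BAT (-1.23 ± 0.28, adjusted p = 0.016). The value of sWAT replicate 3 joins arrays of -0.75 and 1.05, of which the lower is the array of low 5' signal. Without the 2 such arrays the difference was -1.34 ± 0.13, with an adjusted p of 0.00027. The call was lost without replicate 1 (-0.96, adjusted p = 0.064), without replicate 2 (-1.17, adjusted p = 0.051) and on the first arrays alone (-0.91, adjusted p = 0.15). With BAT replicate 4 alone the difference was -0.97.

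Jund, the Jun protein that most resting cells already carry, had probe sets of opposite sign. On 1449117_at, paired with the RefSeq mRNA, BAT had -0.17, -0.55, -0.39 and -0.86 and sWAT had 0.91, 0.15, 0.31 and 0.27. On 1440265_at, paired with a record that is not RefSeq, as are the Fos, Fosl1 and Egr2 probe sets, BAT had 0.37, 0.12, 0.078 and 0.18. There sWAT had -0.2, -0.24, -0.28 and -0.28. Neither probe set overlapped between the tissues, and they gave -0.90 ± 0.15 (adjusted p = 0.0035) and 0.44 ± 0.13 (adjusted p = 0.039). The gene mean was -0.23 ± 0.11 and was not called (adjusted p = 0.13). The lower call was kept without each replicate in turn, with adjusted p up to 0.017. The higher call was lost without any 1 of the replicates, with adjusted p up to 0.14. Without the 2 arrays of low 5' signal 1449117_at gave -0.89 and 1440265_at gave 0.45 (adjusted p = 0.0014 and 0.045), and with BAT replicate 4 alone they gave -1.27 and 0.43.

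Jun itself, the founding partner of Fos in AP-1, was not called on either probe set. On 1417409_at the values were 0.081, -0.82, 0.18 and 0.79 in BAT and -0.19, 0.21, -0.98 and 0.00 in sWAT. On 1448694_at they were 0.15, 0.014, 0.46 and 1.13 in BAT and -0.056, 0.015, -0.41 and -0.1 in sWAT. BAT replicate 4 was the highest sample on both. On 1417409_at BAT replicates 1 to 3 lay within the range of the sWAT replicates, and on 1448694_at only BAT replicate 2 did. The differences were 0.30 ± 0.34 (adjusted p = 0.51) and 0.58 ± 0.22 (adjusted p = 0.09). Without the 2 arrays of low 5' signal 1448694_at gave 0.66 with an adjusted p of 0.032, while 1417409_at gave 0.34 and did not pass. With BAT replicate 4 alone, the highest sample on both, they gave 1.27 and 1.03.

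Fos, the member induced most sharply by a stimulus, has the single probe set 1423100_at. Its values were -1.04, -0.32, 0.11 and -0.33 in BAT and 0.42, -0.054, 0.55 and 0.65 in sWAT. The tissues overlap, since BAT replicate 3 lay above sWAT replicate 2, and BAT replicate 1 was the lowest of all. Fos was 1.73-fold lower in BAT (-0.79 ± 0.22, adjusted p = 0.03). Each replicate number gave a negative difference (-1.46, -0.27, -0.44 and -0.98), though numbers 1 to 3 do not read as pairs of 1 mouse. The Fos call is near the threshold. This call is near the threshold. It was lost without replicate 1 (-0.56, adjusted p = 0.087), without replicate 4 (-0.72, adjusted p = 0.088) and without the 2 arrays of low 5' signal (-0.83, adjusted p = 0.08). With BAT replicate 4 alone the difference was -0.73. On the second arrays alone Fos gave -0.32 (adjusted p = 0.24), and with each array scaled to Gapdh and Actb it gave -0.76 (adjusted p = 0.093).

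The other Fos family genes were not called. Fosb, whose truncated form accumulates on repeated stimulation, ranged from -0.16 to 0.31 in BAT and from -0.27 to 0.1 in sWAT, a difference of 0.12 ± 0.16 (adjusted p = 0.6). Fosl1 (Fra-1), induced later than Fos and itself an AP-1 target, differed by 0.34 ± 0.17 on 1417487_at and by 0.19 ± 0.13 on 1417488_at, with adjusted p of 0.17 and 0.3. Fosl2 (Fra-2) gave 0.44 ± 0.16 on 1422931_at, paired with the RefSeq mRNA, and -0.35 ± 0.18 on 1437247_at, paired with a record that is not RefSeq. The adjusted p were 0.077 and 0.16. All of these probe sets overlapped between the tissues. Without the 2 arrays of low 5' signal Fosl1 1417487_at (0.49, adjusted p = 0.042) and Fosl2 1422931_at (0.47, adjusted p = 0.024) passed, both higher in BAT, while Fosb gave 0.059, Fosl1 1417488_at 0.30 and Fosl2 1437247_at -0.47. With BAT replicate 4 alone Fosb gave -0.11, the Fosl1 probe sets 0.19 and 0.27, and the Fosl2 probe sets 0.20 and -0.044.

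**Figure D2:**
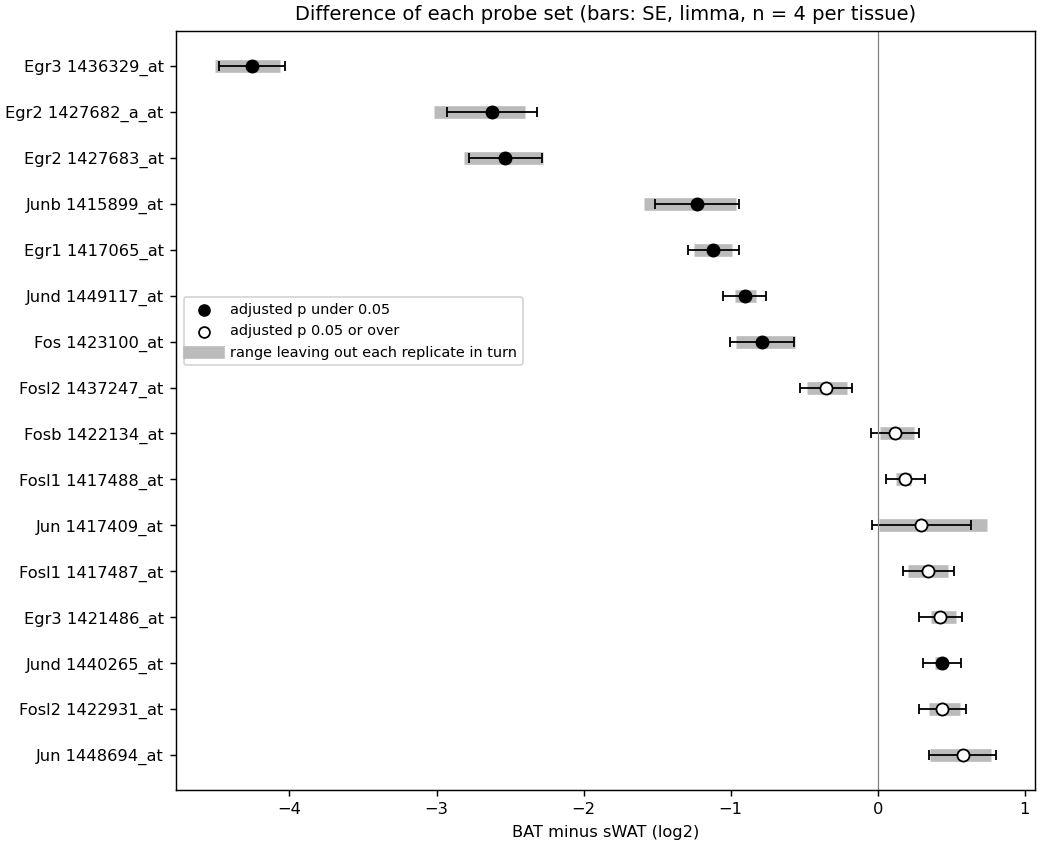
BAT minus sWAT (log2) of each probe set with its SE (limma, n = 4 per tissue), filled where the adjusted p is under 0.05, over the range obtained when each replicate is left out in turn (grey). Egr3 1436329_at (-4.25) and both Egr2 probe sets (-2.62 and -2.53) lie farthest from 0, and Egr3, Jund and Fosl2 each have probe sets on both sides of 0.

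Over all probe sets, the median difference of the 2 arrays, in absolute value, was 0.38 in BAT replicate 1 and 0.36 in sWAT replicate 3, which hold the arrays of low 5' signal, and 0.13 to 0.2 in the other replicates. On Jun 1417409_at the arrays of BAT replicate 1 read 1.01 and -0.85, and those of sWAT replicate 3 read -1.75 and -0.21. Fos read -1.7 and -0.39 in BAT replicate 1 and 1.04 and 0.061 in sWAT replicate 3. In both replicates the array of low 5' signal read lower for Jun and higher for Fos than the array beside it. Egr2 1427683_at read -2.51 and -0.65 in BAT replicate 1, and 1.96 and 0.95 in sWAT replicate 3. Egr1 differed by at most 0.4 between 2 arrays, also in BAT replicate 1. The part of RNA quality in the differences between the tissues was not tested beyond leaving those arrays out. That kept 6 probe sets lower in BAT and called 5 higher, against 7 and 1 with all arrays.

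**Figure D3:**
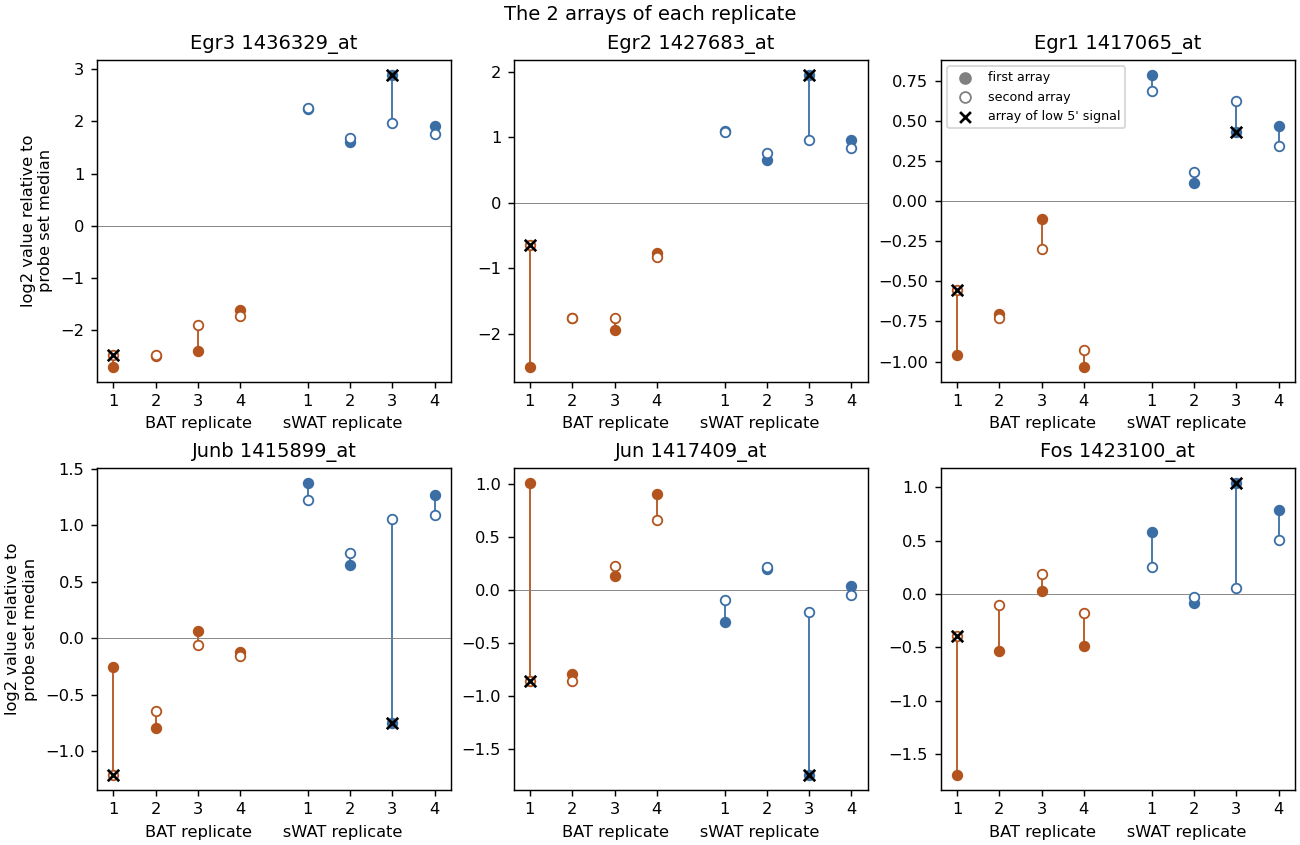
The log2 values of the first (filled) and the second (open) array of each replicate for 6 member probe sets, BAT left of sWAT, with a cross on the arrays of low 5' signal. Jun and Junb read lower on the crossed array than on the array beside it, by 1.87 for Jun in BAT replicate 1 and 1.8 for Junb in sWAT replicate 3, while Egr3 1436329_at and Egr1 keep BAT and sWAT apart on every array.

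The genes around the factors were read from lists of 128 measured genes, and 59 of them were called, 24 higher and 35 lower in BAT. The counts of these lists stand against the 21.0% of all genes that were higher and the 17.5% that were lower. Among 13 other dimer partners of AP-1, 4 were higher (30.8%) and 3 lower (23.1%), with a median of -0.14. Batf, which pairs with Jun in lymphocytes, had -0.0061, -0.49, -0.26 and -0.098 in BAT against 1.44, 1.03, 0.34 and 1.63 in sWAT (-1.32 ± 0.20, adjusted p = 0.0021). Batf3, needed for a class of dendritic cells, gave -1.31 ± 0.20, while Maff, a small Maf protein, and Batf2 were higher in BAT, by 1.09 ± 0.20 and 1.06 ± 0.16. Atf3, a stress induced partner of Jun, was not called (-0.14 ± 0.14, adjusted p = 0.45). Of the Egr relatives and corepressors, Nab2, itself an Egr target that restrains Egr proteins, was lower in BAT (-0.58 ± 0.12, adjusted p = 0.0089) and Egr4 was higher (0.43 ± 0.12, adjusted p = 0.027). Nab1 (-0.30) and Wt1 (0.21) were not called.

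Of 45 other immediate early genes, 9 were higher in BAT, a share close to that of all genes, and 15 were lower (33.3%, against 17.5% of all genes), with a median of -0.10. Dusp2, a MAP kinase phosphatase of lymphoid cells, gave -2.26 ± 0.24, and Myc, the growth regulator, gave -2.11 ± 0.22. Bhlhe40, a clock linked repressor, was higher by 1.83 ± 0.31 and the small GTPase Rhob by 1.49 ± 0.15. For Bhlhe40 the BAT values were 2, 1.87, 0.83 and 0.13, against -0.42, -0.87, -0.38 and -0.84 in sWAT, so BAT replicate 4 was again nearest to sWAT. The 10 heat shock genes, a group that tissue handling also induces, split evenly, with 3 higher (Hspb1 by 1.51 ± 0.36) and 3 lower (Hsph1 by -1.15 ± 0.28).

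Upstream of the members, 15 of 24 listed kinases were measured. Of these, 2 were higher (Rps6ka5 0.68, Map2k2 0.45) and 2 lower (Mapk11 -0.63, Map3k1 -0.55). The Mapk11 value is a mean over probe sets of both signs. Of 15 transcription factors that act on immediate early promoters, 1 was higher (6.67%, against 21.0% of all genes) and 6 were lower (against 17.5% of all genes), with a median of -0.38. Srf, the founding factor of the CArG box class, had -0.29, -0.33, -0.29 and -0.22 in BAT and 0.54, 0.22, 0.36 and 0.51 in sWAT (-0.69 ± 0.12, adjusted p = 0.0036). Its coactivator gene Mrtfa gave -1.21 ± 0.30 and Mef2c gave -1.80 ± 0.18, while Crem, a cyclic AMP response factor, was higher by 0.40 ± 0.11. Of 26 known AP-1 or Egr target genes, 4 were higher (15.4%) and 5 lower (19.2%) in BAT, close to the shares of all genes (21.0% and 17.5%), with a median of -0.24. The matrix protease Mmp3 gave -1.75 ± 0.36, with BAT replicate 4 at 1.10 and the other BAT replicates between -2.44 and -1.37. The hyaluronan receptor Cd44 gave -1.56 ± 0.19 as a mean over 4 probe sets of both signs, and the cell cycle inhibitor Cdkn1a was higher by 1.47 ± 0.22.

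**Figure D4:**
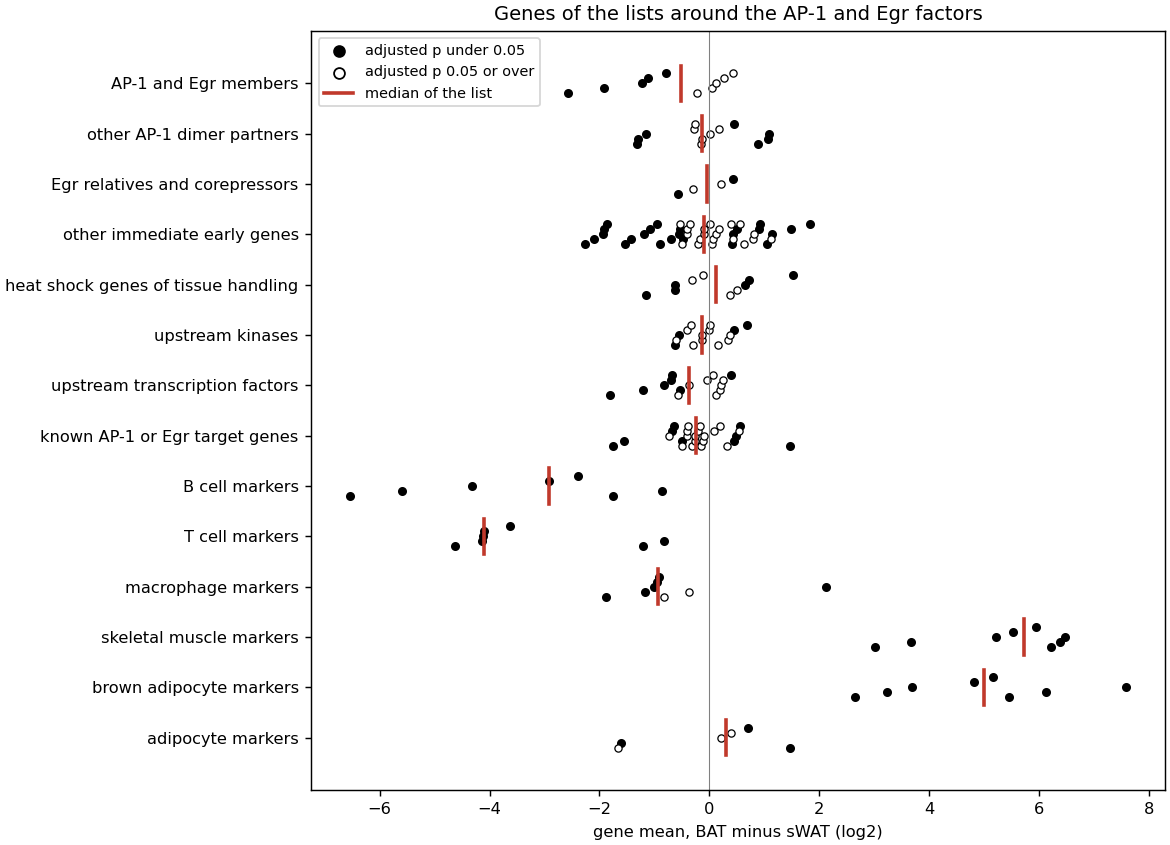
BAT minus sWAT (log2) of each gene of the AP-1 and Egr members, of the 7 lists around them and of 6 marker lists, filled where the adjusted p is under 0.05, with the median of each list in red. The members have a median of -0.51 and the other immediate early genes of -0.10, while the B cell and T cell markers all lie below 0 and the skeletal muscle markers all above.

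Markers of other cell types moved with the same contrast. All 7 measured B cell markers and all 7 T cell markers were lower in BAT. The mean of the B cell list lay between -1.79 and -1.12 in BAT and between 1.46 and 2.16 in sWAT, and that of the T cell list between -1.88 and -1.02 in BAT and between 1.45 and 2.16 in sWAT. Of 8 macrophage markers 1 was higher and 5 lower, and of 8 mesothelium and fibroblast markers 0 were higher and 5 lower. All 8 skeletal muscle markers were higher in BAT, where their mean lay between 2.38 and 4.09, against -2.35 to -1.85 in sWAT. Of the other lists, 4 of 8 smooth muscle and pericyte markers, 2 of 5 nerve markers and 1 of 8 endothelial markers were higher and 0 lower, 4 of 8 epithelial markers were higher and 2 lower, and 2 of 6 general adipocyte markers were higher and 1 lower. Because the values are centred on each probe set, no marker can be read as being at 0. The part of lymphocytes, macrophages, muscle and sex in the differences of Egr2, Egr3, Egr1, Junb and Fos was not tested.

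Within a tissue the gene means of the members did not vary as 1 group, those of Egr3 and Fosl2 joining probe sets that disagree. After the mean of each tissue was taken off, Egr2 and Egr3 correlated at 0.879 over the 8 replicates, and Fosb and Fosl1 at 0.858, while Fos and Fosl2 gave -0.836 and Egr1 gave -0.223 with Egr2 and 0.589 with Fos. The genes most like Fos by this measure were A430005L14Rik (0.974), Thoc3 (0.973), Zfp516 (0.948), Camta2 (0.942) and Rasa2 (0.937). Those most like Egr1 were Hhex (0.97), Filip1l (0.969), Traf3ip1 (0.969), Ccdc96 (0.96) and Mat2b (0.959). These are descriptions over 8 replicates that share the 2 arrays of low 5' signal, and the highest of 18194 genes were taken.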

How the data were processed

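The deposited matrix holds log2 values of 16 arrays (8 BAT, 8 sWAT), which the authors obtained with RMA and quantile normalization (GeneSpring) and then centred on each probe set's median. Every row median lies within 5e-07 of 0. The 2 arrays of each replicate were averaged. BAT minus sWAT was fitted with limma 3.58.1 (lmFit, eBayes) in R 4.3.3 over 45101 probe sets, and over 18194 gene means of single-symbol probe sets, with the replicate number as a block because the methods used a paired test, and with Benjamini-Hochberg adjustment. A further 932 probe sets named several genes and 9211 named none. Arrays give no depth, so the number of replicates limits the precision. The fit was tested on simulated data. The members, lists and tests were chosen with earlier results of these data known. All members are named, and of each list up to 2 called genes in each direction, by the size of the difference, together with dimer partners and Egr relatives for their role. Srf, outside this rule, and the replicate values printed for Bhlhe40, Mmp3 and Elovl3 were chosen after their values were seen. Alternatives were other arrays, scalings, adjustment sets, the methods' paired t-test, the fit without the block and leaving out replicates. Same-numbered BAT and sWAT replicates correlated between -0.348 and 0.231 in their deviations from the tissue means over all probe sets. Replicates of different number correlated between -0.279 and 0.523. The highest was BAT replicate 1 with sWAT replicate 3, which hold the arrays of low 5' signal. Promoter windows are those of RefSeq. Python 3.11.15 and matplotlib 3.10.9 were used for the plots.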

Additional observations from a re-analysis of the deposited data

Results flagged for a closer look

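Of 32 groups of 4 replicates tested, 1 held a replicate far from the others. Fosl2 1437247_at was 0.44 in sWAT replicate 2, against 0.031 to 0.076 in the other 3 sWAT replicates, and its gap took 0.89 of the range. Chance gives such a replicate in about 1 of 20 groups.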

How the results depend on the processing

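The lower calls of both Egr2 probe sets, Egr3 1436329_at, Egr1 and Jund 1449117_at were kept under every limma alternative run with more than 1 BAT replicate. The methods' paired t-test over 4 replicate pairs called 4 of 16 probe sets, against 8, and lost Fos, Junb, Egr1 and Egr2 1427682_a_at. Leaving out each replicate gave 5 to 8 probe sets, 3 to 6 genes and 42 to 59 genes of the surrounding lists, against 8, 5 and 59, lowest without replicate 1 for the members. Scaling to the 3' probe sets of Gapdh and Actb called 33 of the surrounding genes, and BAT replicate 4 alone, an alternative chosen after seeing the data in which the lone replicate is assumed to vary as sWAT does, called 24. In that last setting Fosb was -0.11. Jun 1417409_at was -0.18 on the second arrays alone. The Fosl2 gene mean, 0.044, became -0.020 on the first arrays alone, -0.0023 without the 2 arrays of low 5' signal, -0.017 with each array centred on its median and, with each replicate left out, -0.041 to 0.14. The cause was not tested. Without the replicate block 9 of the 16 probe sets were called, Fosl2 1422931_at (0.44, adjusted p = 0.033) being added, and 5 of 10 genes. Over the single results 283 kept direction and side of the threshold, 16 passed it, 32 lost it and 7 changed sign. This tally includes BAT replicate 4 alone, under the assumption stated for that setting.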
